A study of Mus musculus with 24 samples.

Results

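Liver X receptors LXRα and LXRβ, the RXR partner encoded by Rxra and 7 genes of sterol and phospholipid traffic were followed across the livers of 24 mice. The set held 10 genes of 22088 tested: Nr1h3 and Nr1h2, which encode LXRα and LXRβ, Rxra, Abca1, Abcg1, Abcg5, Abcg8, Mylip, Lpcat3 and Pltp. They were chosen by symbol, and all 16 non-control array probes with those symbols were read, of which 15 passed the filter on dim probes. None of the 10 genes was left out. LXRα and LXRβ are nuclear receptors that are activated by oxysterols and bind DNA as heterodimers with RXR. In liver and macrophages they raise transcription of genes that move cholesterol out of cells, into high density lipoprotein or bile, and of genes that remodel phospholipids and make fatty acids. Without an activating sterol the heterodimer can hold corepressors at the same genes, so loss of the receptors can lower some targets and release others.

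The mice were female, 8 weeks old and of the strain sv129/C57. There were 4 groups of 6: KO mice, labelled as knockouts of LXRalpha and LXRbeta, given fumonisin B1 (FB1), KO mice given water as the control, WT mice given FB1, and WT mice given water. FB1 is a Fusarium mycotoxin that blocks ceramide synthases. Its dose was 10 mg per kg of body weight a day for 1 month. RNA of whole liver went onto 1-colour Agilent arrays, 1 array for each mouse. The labels name neither a promoter or tissue limit for the KO nor the bases that its alleles lack.

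A level below is log2 of the processed signal, with each array's 75th percentile set to 0. Differences between group means are on the same log2 scale, are followed by their standard error, and were tested with limma over all 24 arrays. A gene was called where its p, adjusted over all 22088 genes by Benjamini-Hochberg, was under 0.05. Within groups the arrays had r of 0.984 to 0.994 across genes. Between 58.7% and 64.5% of spots on an array were well above background. Hepatocyte markers were high on every array, with Alb between 9.25 and 9.82. In whole liver RNA, fewer cells of a type and less RNA per cell cannot be told apart.

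The DNA ahead of the start of transcription is shown for the genes whose promoters bear on the results, from RefSeq on build GRCm38.p6. RefSeq windows were matched for 9 of the 10 genes, and 250 bases before each start were searched on both strands. A strict LXR element, which is AGGTCA, any 4 bases and AGGTCA, stood in 0.0152% of all 32851 windows and in none of the 12 windows of these genes. A looser form with the same spacing, which is GGTNA, any 5 bases and GGTNA, stood in 0.621% of all windows and, among these genes, in the Abca1 window. Its match lay on the minus strand of the gene at bases -67 to -53 from the start. The last 100 bases before the Abca1 start, chr4:53159896-53159995 on the minus strand, are printed 5′ to 3′ with that match in capitals.
Abca1: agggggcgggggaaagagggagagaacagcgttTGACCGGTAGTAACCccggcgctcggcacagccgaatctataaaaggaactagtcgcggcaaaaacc

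Abcg5 and Abcg8 lie head to head on chromosome 17, and 109 bases separate their starts. That stretch, chr17:84683012-84683120 read on the plus strand, is the sequence that both genes have in common ahead of their starts. It holds 2 copies of a GATA box, AGATAA, both on the minus strand and printed in capitals as TTATCT. Any copy of this box stood in 9.99% of all 250-base windows, which are longer than these 109 bases. The 250-base window of Abcg8 holds a further copy at bases -127 to -122 from its start. No match to the looser LXR element stood between the starts. A match is a description of letters and not of binding.
Abcg5 and Abcg8: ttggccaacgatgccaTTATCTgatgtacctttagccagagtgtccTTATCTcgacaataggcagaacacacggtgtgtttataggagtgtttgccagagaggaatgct

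Signal at the probes used for both receptor genes was lower in KO livers. Nr1h3 spanned -5.12 to -2.56 with a median of -4.53 in KO FB1 livers, and -5.13 to -3.98 with a median of -4.41 in KO control livers. In WT FB1 livers it spanned 4.71 to 4.95 with a median of 4.85, and in WT control livers 4.76 to 5.06 with a median of 4.997. Every KO array lay far below every WT array, and KO FB1 replicate 6 was the highest of the KO arrays. The difference of KO from WT was -9.17 ± 0.29 with FB1 (adjusted p = 1.01e-16) and -9.45 ± 0.29 without it (adjusted p = 4.6e-17), and the other Nr1h3 probe gave -8.85 and -9.19. The KO arrays still read well above background, at signals of 15.2 to 116 against 13577 to 20498 in WT. These probes lay at chr2:91024250-91024309 and chr2:91024435-91024494 on mm9, the build of the array files.

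Nr1h2 gave 2 different pictures by probe. The probe used for the gene, chr7:51805013-51805072, spanned 0.31 to 0.80 in KO FB1 livers and 0.34 to 0.72 in KO control livers. The same probe spanned 4.02 to 4.22 in WT FB1 livers and 4.07 to 4.34 in WT control livers, with no overlap between genotypes. Its difference of KO from WT was -3.62 ± 0.08 with FB1 (adjusted p = 2.83e-20) and -3.66 ± 0.08 without FB1 (adjusted p = 2.18e-20). A further probe upstream of it in the gene crosses an exon junction, chr7:51807934-51808069 on the minus strand. At that probe the KO and WT ranges overlapped, from -2.36 to -2.01 in KO FB1 livers and -2.59 to -2.03 in WT FB1 livers. Its difference was 0.06 ± 0.09 with FB1 (adjusted p = 0.659 over tested probes) and 0.20 ± 0.09 without it (adjusted p = 0.152). The third probe was well above background on 4 of 24 arrays and was not tested. The coding bases of the junction probe are given here because they mark the stretch of Nr1h2 at which KO livers did not read lower.
Nr1h2 junction probe: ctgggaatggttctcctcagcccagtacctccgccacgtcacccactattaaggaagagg

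FB1 changed neither receptor transcript past the threshold. In WT livers the FB1 difference was -0.10 ± 0.29 for Nr1h3 (adjusted p = 0.894) and -0.07 ± 0.08 for Nr1h2 (adjusted p = 0.668). The 95% interval of the Nr1h2 difference ran from -0.22 to 0.09, and that of Nr1h3 from -0.70 to 0.50.

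Rxra encodes RXRα, an RXR with which LXRα and LXRβ bind DNA. It spanned 7.06 to 7.53 with a median of 7.11 in KO FB1 livers, and 7.37 to 7.65 with a median of 7.52 in KO control livers. KO FB1 replicate 3 was the highest of its group and lay inside the range of the KO controls. The difference was -0.30 ± 0.10 (adjusted p = 0.0138), but it was -0.07 after quantile normalization, -0.05 after normexp correction and 0.00 in the authors' deposited values, with no call in any of them. A dimmer Rxra probe spanned -1.33 to -0.80 in KO FB1 livers and -0.53 to -0.31 in KO control livers, without overlap. It gave -0.69 ± 0.09 (adjusted p = 5.74e-06), and its FB1 effect differed between genotypes by -0.56 ± 0.13 (adjusted p = 0.0118). In WT livers the FB1 difference of the probe used was 0.02 ± 0.10 (adjusted p = 0.924).

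**Figure D1:**
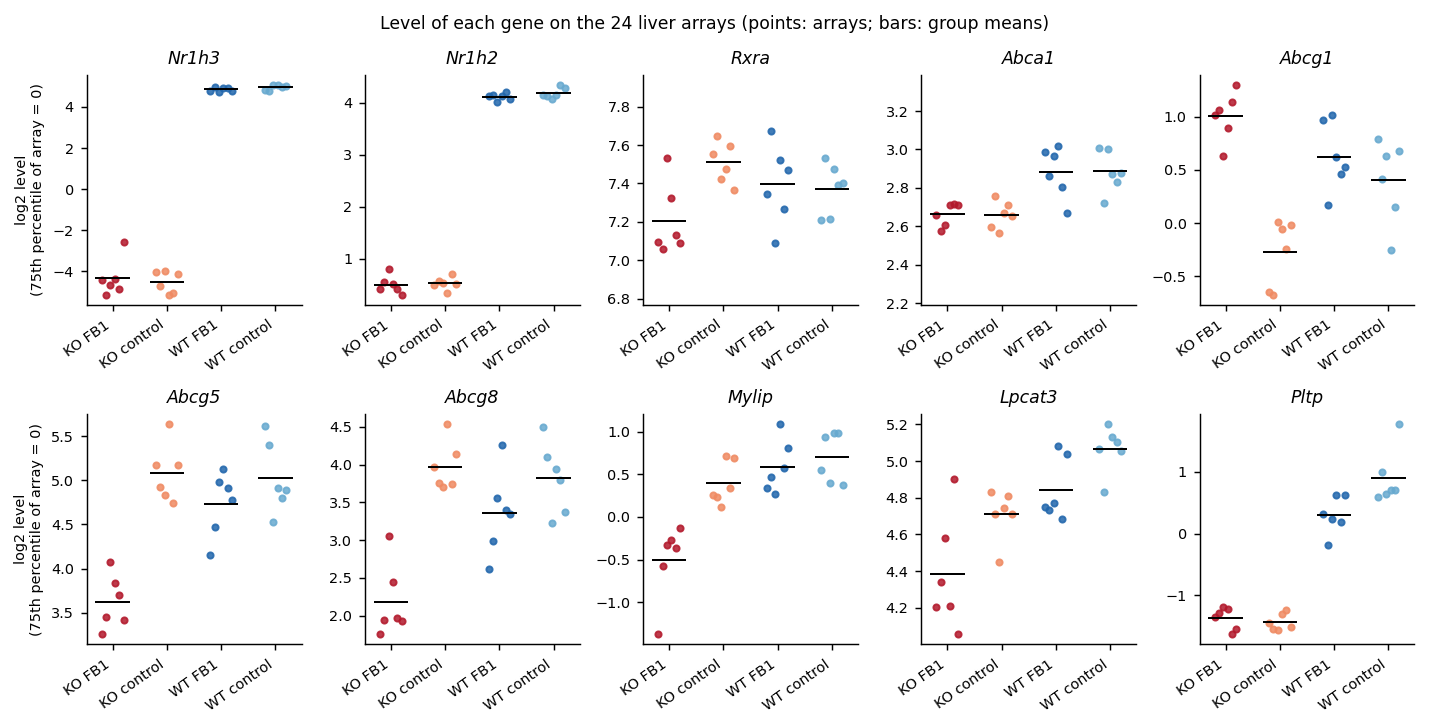
Log2 level of each of the 10 genes on every array, scaled so that the 75th percentile of an array is 0; points are single livers and bars are means of 6. Nr1h3, Nr1h2 and Pltp separate KO from WT, while Abcg5, Abcg8 and Mylip are low and Abcg1 high in KO FB1 livers relative to KO control livers.

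FB1 in KO livers moved 6 of the 10 genes past the threshold. Abcg1 rose, and Abcg5, Abcg8, Mylip, Lpcat3 and Rxra fell. Of all genes tested 41.2% were called in this comparison, 16.5% higher and 24.6% lower, so a count of 6 in 10 has a high background. Quantile normalization, normexp correction and the authors' deposited values each called 4 of the 10, where 40.3%, 38.6% and 37.2% of all genes were called. In the main values the median difference was -0.17 over the 10 genes and -0.08 over all genes. The groups did not overlap for 4 of them (Abcg1, Abcg5, Abcg8 and Mylip), where 18.4% of all genes did not overlap. In WT livers FB1 moved 1 of the 10 past the threshold, Pltp downward, where 2.89% of all genes were called, 2.06% higher and 0.824% lower. Its groups overlapped for all 10 genes there, while 2.33% of all genes did not overlap. Without WT FB1 replicate 1, the share of all genes called was 1.73%, and 77 genes were called lower, against 182 with every array. The median difference in WT was -0.11 over the 10 genes and -0.03 over all genes.

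The sterol exporter of bile carried the largest of these FB1 changes. Abcg5 and Abcg8 encode the partners of a single transporter, which pumps cholesterol and plant sterols from hepatocytes into bile and from enterocytes into the gut. Abcg5 spanned 3.26 to 4.07 with a median of 3.57 in KO FB1 livers, and 4.74 to 5.63 with a median of 5.05 in KO control livers. In WT FB1 livers it spanned 4.16 to 5.12 with a median of 4.84, and in WT control livers 4.53 to 5.62 with a median of 4.90. The KO FB1 livers lay below all others, and the other 3 groups overlapped.

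FB1 lowered Abcg5 in KO livers by 2.75-fold, a difference of -1.46 ± 0.19 (adjusted p = 4.62e-06), and all 6 KO FB1 arrays lay below the KO control mean. In WT livers the difference was -0.29 ± 0.19 (adjusted p = 0.449, 95% interval -0.69 to 0.11). The FB1 effect was lower in KO than in WT by -1.17 ± 0.27 (adjusted p = 0.0101). Without FB1 the genotypes differed by 0.06 ± 0.19 (adjusted p = 0.902), with a 95% interval from -0.34 to 0.46. With FB1 Abcg5 was 2.17-fold lower in KO than in WT livers, -1.12 ± 0.19 (adjusted p = 0.000101).

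Abcg8 followed the same order. It spanned 1.76 to 3.06 with a median of 1.95 in KO FB1 livers, and 3.70 to 4.53 with a median of 3.87 in KO control livers. In WT FB1 livers it spanned 2.62 to 4.26 with a median of 3.37, and in WT control livers 3.23 to 4.49 with a median of 3.87. KO FB1 replicate 3, at the top of its group for Abcg5 also, reached into the WT FB1 range. The FB1 difference was -1.79 ± 0.26 in KO livers, a 3.46-fold fall (adjusted p = 1.09e-05), and -0.46 ± 0.26 in WT livers (adjusted p = 0.352). The FB1 effects differed by -1.33 ± 0.36 (adjusted p = 0.0226). With FB1 Abcg8 was 2.27-fold lower in KO than in WT livers (adjusted p = 0.000992).

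Both genes moved together array by array. Over the 24 arrays their levels correlated at r = 0.973, the highest r of either gene with any tested gene. With each group's mean removed r was still 0.911, as a description over arrays that share groups and slides. Their probes lie 41945 bases apart on chromosome 17 of mm9, at chr17:85057604-85057663 for Abcg5 and chr17:85099609-85099668 for Abcg8. The sequence between their starts is printed above. The next gene most like Abcg8 was Fgf1, a growth factor gene, at r = 0.937, and the next for Abcg5 was Btbd9 at r = 0.904.

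**Figure D2:**
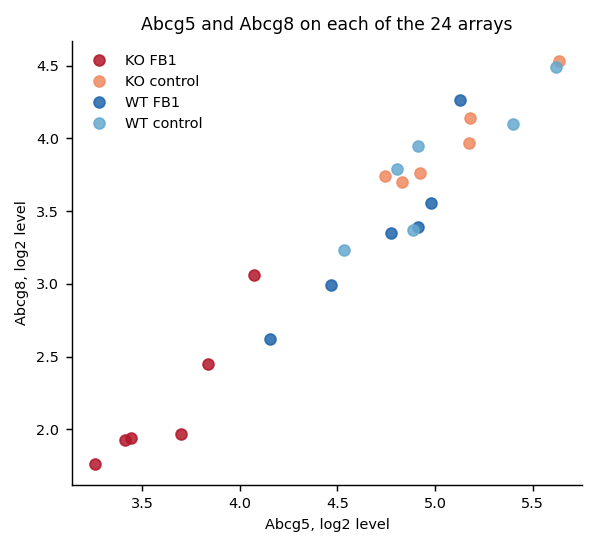
Level of Abcg8 against level of Abcg5 on each of the 24 arrays, both log2 with the 75th percentile of the array at 0, coloured by group. The 6 KO FB1 livers form the low end, with Abcg5 at 3.26 to 4.07, and the other groups overlap along the same line.

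Within slides the Abcg5 and Abcg8 changes kept their direction. The arrays lay on 3 slides, each with 2 arrays of every group. The FB1 difference of Abcg5 in KO livers was -1.22, -1.22 and -1.94 on slides 1, 2 and 3. That of Abcg8 was -1.77, -1.30 and -2.31. The comparison of KO with WT under FB1 was less even, with Abcg8 at -1.52, -0.05 and -1.97, and slide 2 held both the highest KO FB1 array and the 2 lowest WT FB1 arrays for Abcg8.

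Some hepatocyte markers moved beside them. Of 10 hepatocyte markers 6 fell with FB1 in KO livers, with a median difference of -0.49, where 24.6% of all genes were called lower. In WT livers limma called 0 of the 10 markers, and 4 had an unadjusted p under 0.05. Alb and Ttr, which head the list, stayed close. Alb had a median of 9.62 in KO FB1 livers and 9.57 in KO control livers, and Ttr 8.59 and 8.66. The mean level of the list spanned 7.25 to 7.88 in KO FB1 livers and 7.70 to 8.04 in KO control livers. It spanned 7.61 to 7.84 in WT FB1 livers and 7.83 to 7.98 in WT control livers. KO FB1 replicate 3 was the highest of its group for this list as for Abcg5 and Abcg8. The lowest FB1 difference of the marker list in KO livers was -1.17 (Tat, tyrosine aminotransferase). The part of hepatocyte RNA in the result was not tested.

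Abcg1 went the other way. ABCG1 moves cholesterol within and out of cells to high density lipoprotein and is abundant in macrophages. Abcg1 spanned 0.63 to 1.30 with a median of 1.04 in KO FB1 livers, and -0.67 to 0.01 with a median of -0.15 in KO control livers. In WT FB1 livers it spanned 0.17 to 1.01 with a median of 0.57, and in WT control livers -0.25 to 0.79 with a median of 0.52. All KO FB1 livers were above all KO controls, and the WT groups overlapped each other.

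FB1 raised Abcg1 2.42-fold in KO livers, by 1.28 ± 0.18 (adjusted p = 7.59e-06). In WT livers the difference was 0.22 ± 0.18 (adjusted p = 0.528, 95% interval -0.14 to 0.59). The FB1 effects differed by 1.05 ± 0.25 (adjusted p = 0.0109). Without FB1 Abcg1 was 1.59-fold lower in KO than in WT livers, -0.67 ± 0.18 (adjusted p = 0.0104). With FB1 the difference was 0.38 ± 0.18 and missed the threshold (adjusted p = 0.104).

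Markers of recruited macrophages rose beside Abcg1 with FB1 in KO livers. Of 10 markers of recruited monocytes and macrophages, 8 rose with FB1 in KO livers, with a median of 1.51, and 5 rose in WT livers, with a median of 0.78. The shares of all genes called higher were 16.5% in KO livers and 2.06% in WT livers. The list's mean level spanned 1.38 to 1.91 in KO FB1 livers, -0.23 to 0.32 in KO control livers, -0.77 to 0.34 in WT FB1 livers and -1.86 to -0.76 in WT control livers. The lead marker Ccr2, a monocyte chemokine receptor, was well above background on all arrays, while Ly6c2 was lower in KO than in WT livers (-2.32 without FB1). Ly6c2 stayed close with FB1, with medians of 3.11 in KO FB1 and 3.01 in KO control livers. In WT livers its medians were 5.26 with FB1 and 5.29 without it, and the ranges overlapped in both genotypes. The gene most like Abcg1 over the 24 arrays was Cyth4, a guanine nucleotide exchange factor, at r = 0.939, followed by Fbxw17 at 0.929 and Clec12a, a myeloid lectin receptor, at 0.926. With group means removed these were 0.854, 0.856 and 0.795. In KO against WT livers without FB1, 6 of the 10 markers were higher and 2 lower, with a median of 1.13. Of 9 markers of resident macrophages 9 were lower in that comparison. Over all genes 7.21% were called higher and 8.02% lower there. The part of macrophage RNA in the Abcg1 result was not tested.

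**Figure D3:**
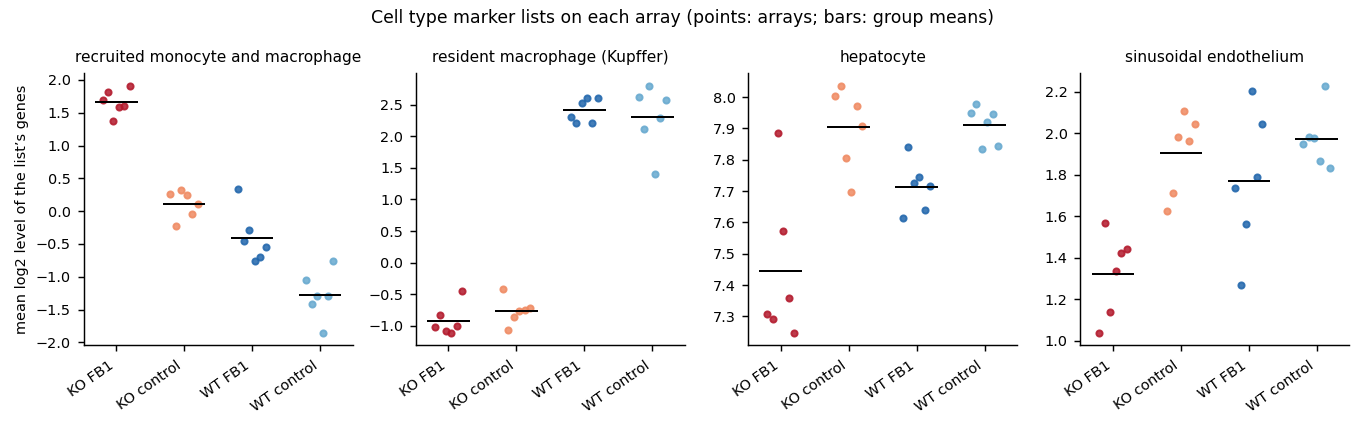
Mean log2 level of 4 cell type marker lists on each array; points are single livers and bars are group means. Recruited macrophage markers are highest in KO FB1 livers (1.38 to 1.91), Kupffer markers separate KO from WT, and hepatocyte and sinusoidal endothelium lists have their lowest means in KO FB1 livers.

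Abca1 showed small changes that depended on the probe. ABCA1 loads cholesterol and phospholipid onto apolipoprotein A-I. At the probe used, chr4:53043944-53044003, Abca1 spanned 2.57 to 2.71 in KO FB1 livers and 2.56 to 2.76 in KO control livers. It spanned 2.67 to 3.02 in WT FB1 livers and 2.72 to 3.01 in WT control livers, so that KO and WT ranges overlapped slightly. KO was below WT by -0.22 ± 0.06 with FB1 (adjusted p = 0.0104) and by -0.23 ± 0.06 without FB1 (adjusted p = 0.0167). With FB1 this was -0.16 (adjusted p = 0.0714) in the authors' deposited values and -0.08 (adjusted p = 0.486) as the mean of both Abca1 probes. Without FB1 the mean of both probes was -0.22 (adjusted p = 0.0901). The FB1 difference was 0.00 ± 0.06 in KO livers (adjusted p = 0.964) and 0.00 ± 0.06 in WT livers (adjusted p = 0.99).

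A junction-crossing Abca1 probe, chr4:53048405-53049145, was dimmer and read differently. Its signals were 69.9 to 148, against 2993 to 4769 at the probe used. The junction probe spanned -2.44 to -1.83 in KO FB1 livers and -2.99 to -2.52 in KO control livers, with no overlap. The FB1 difference there was 0.53 ± 0.13 in KO livers (adjusted p = 0.002 over tested probes) and 0.27 ± 0.13 in WT livers (adjusted p = 0.267). KO against WT gave 0.05 ± 0.13 with FB1 and -0.21 ± 0.13 without it, with no call. The mean of both probes gave an FB1 difference of 0.27 in KO livers (adjusted p = 0.0142). The coding bases of the junction probe are printed since its FB1 difference in KO livers was called, while the brighter probe used gave 0.00 ± 0.06.
Abca1 junction probe: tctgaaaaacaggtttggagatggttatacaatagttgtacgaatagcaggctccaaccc

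**Figure D4:**
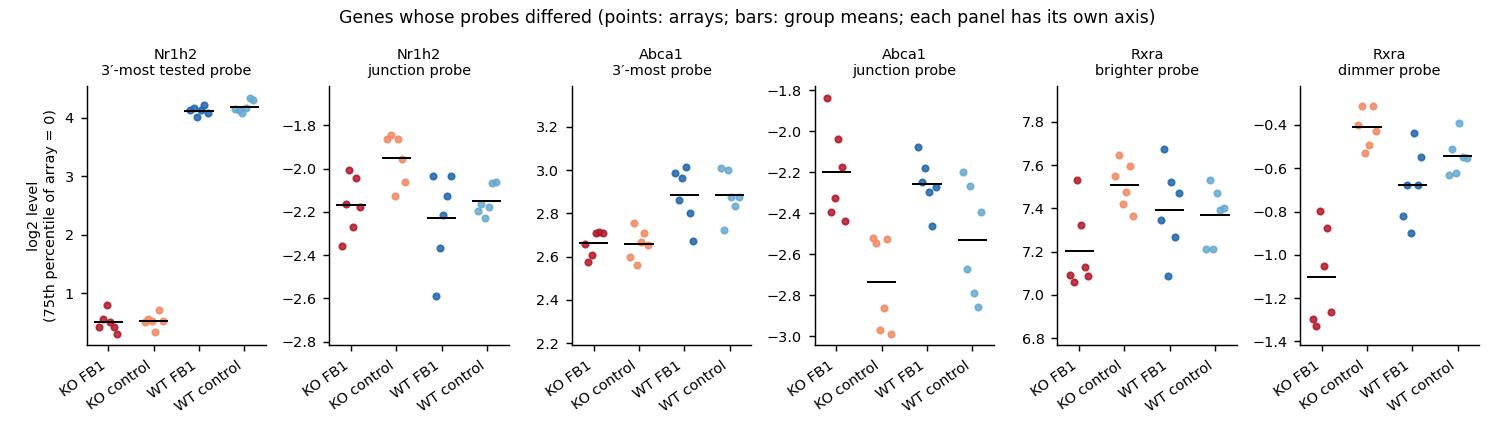
Log2 level on each array at the probes of Nr1h2, Abca1 and Rxra, used probe first and the other tested probe after it; points are livers and bars group means, and each panel has its own axis. Nr1h2 separates KO from WT at its used probe and not at the junction probe, and the Abca1 junction probe is high in KO FB1 livers (-2.44 to -1.83) against KO control livers (-2.99 to -2.52).

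Mylip encodes an E3 ubiquitin ligase, also called IDOL, that sends lipoprotein receptors to the lysosome. It spanned -1.37 to -0.13 with a median of -0.35 in KO FB1 livers, and 0.12 to 0.72 with a median of 0.30 in KO control livers. In WT FB1 livers it spanned 0.27 to 1.08 with a median of 0.52, and in WT control livers 0.37 to 0.99 with a median of 0.74. Every KO FB1 liver lay below every other liver, and KO FB1 replicate 1 lay apart at -1.37. The FB1 difference was -0.90 ± 0.19 in KO livers, a 1.87-fold fall (adjusted p = 0.000517), and -0.11 ± 0.19 in WT livers (adjusted p = 0.788). The difference of those effects, -0.79 ± 0.26, missed the threshold (adjusted p = 0.0602).

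With FB1 Mylip was 2.14-fold lower in KO than in WT livers (adjusted p = 7.46e-05), and without FB1 the difference was -0.31 ± 0.19 (adjusted p = 0.302). The gene most like Mylip was Stab2, a scavenger receptor of sinusoidal endothelium, at r = 0.931, and 0.753 with group means removed. Of 9 sinusoidal endothelial markers, 6 fell with FB1 in KO livers, with a median of -0.58, where 24.6% of all genes were called lower. In WT livers limma called 0 of the 9 markers, and 4 had an unadjusted p under 0.05. Their mean level spanned 1.04 to 1.57 in KO FB1 livers, 1.62 to 2.11 in KO control livers, 1.27 to 2.21 in WT FB1 livers and 1.83 to 2.23 in WT control livers. The part of endothelial RNA in the Mylip result was not tested.

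Vldlr and Lrp8, which encode receptors that MYLIP degrades, also fell with FB1 in KO livers. Vldlr, the very low density lipoprotein receptor gene, was lower by -2.30 ± 0.29 (adjusted p = 3.04e-06), and in WT livers it fell as well, at -1.66 ± 0.29 (adjusted p = 0.00181). Lrp8 was lower in KO livers by -0.43 ± 0.14 (adjusted p = 0.0157). Between KO and WT limma called 0 of these 2 genes, with 1 at an unadjusted p under 0.05 with FB1 and 0 without FB1.

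Pltp and Lpcat3 act on phospholipid. PLTP moves phospholipid between lipoproteins. Pltp spanned -1.63 to -1.19 with a median of -1.32 in KO FB1 livers, and -1.57 to -1.25 with a median of -1.48 in KO control livers. In WT FB1 livers it spanned -0.18 to 0.62 with a median of 0.28, and in WT control livers 0.59 to 1.77 with a median of 0.70. The genotypes did not overlap, and WT control replicate 6 lay above the rest.

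Without FB1 Pltp was 5.05-fold lower in KO than in WT livers, -2.34 ± 0.16 (adjusted p = 1.83e-10). With FB1 it was 3.198-fold lower, -1.68 ± 0.16 (adjusted p = 3.65e-08). Pltp was also the member called with FB1 in WT livers, -0.60 ± 0.16 (adjusted p = 0.0461), with all 6 WT FB1 arrays below the WT control mean. That call was lost in 18 of the 24 fits that left out 1 array, with adjusted p up to 0.108, and also after quantile normalization and normexp correction. In KO livers the FB1 difference was 0.06 ± 0.16 (adjusted p = 0.796). The FB1 effects differed by 0.66 ± 0.23, which missed the threshold (adjusted p = 0.0729). Scd1, the stearoyl-CoA desaturase gene, was among the 3 genes most like Pltp (r = 0.957, and 0.387 with group means removed).

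Lpcat3 encodes the acyltransferase that puts polyunsaturated chains onto lysophospholipids. It spanned 4.06 to 4.90 in KO FB1 livers and 4.45 to 4.83 in KO control livers. It spanned 4.68 to 5.08 in WT FB1 livers and 4.83 to 5.20 in WT control livers. Neighbouring groups overlapped, and WT control livers had the highest median. KO was below WT by -0.46 ± 0.11 with FB1 (adjusted p = 0.00337) and by -0.35 ± 0.11 without FB1 (adjusted p = 0.0369), and the junction-crossing Lpcat3 probe gave -0.50 and -0.36. FB1 lowered Lpcat3 in KO livers by -0.33 ± 0.11 (adjusted p = 0.0257), a call lost in 6 of 12 alternatives, among them quantile normalization, normexp correction and the authors' deposited values, and the difference was -0.0069 on slide 1 alone. It was also lost without any of 5 single arrays, with adjusted p up to 0.0768. The call without FB1 was lost in 8 of 12 alternatives, each slide alone included, and in 9 of 24 fits that left out 1 array. The call with FB1 was kept in 10 of 12.

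The members called between genotypes were lower in KO. Without FB1, 6 of 10 were called (Nr1h3, Nr1h2, Abca1, Abcg1, Lpcat3 and Pltp), where 15.2% of all genes were called, 7.21% higher and 8.02% lower. With FB1, 8 of 10 were called lower (the same but Abcg1, with Abcg5, Abcg8 and Mylip), where 32.8% of all genes were called, 14.5% higher and 18.3% lower. Groups did not overlap for 3 of the genes without FB1 and for 5 with FB1, against 7.93% and 15.2% of all genes. The medians were -1.11 with FB1 and -0.33 without it over the 10 genes, and -0.03 with FB1 and 0.01 without it over all genes. Quantile normalization gave 5 lower and 1 higher without FB1, the higher being Rxra (0.22, adjusted p = 0.0326), and Lpcat3 was not called. It called 15.6% of all genes there. Members not called were Abcg5, Abcg8, Mylip and Rxra without FB1, and Abcg1 and Rxra with it. Both receptor genes are the targets of the KO, so their calls follow from the design. They are counted in the called members, the genes without overlap and the medians of both comparisons. The genes without overlap other than the receptors were Pltp without FB1, and Pltp, Abcg5 and Mylip with it.

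Kupffer markers separated the genotypes. Of 9 markers of resident macrophages (Kupffer cells), 9 were lower in KO without FB1, with a median of -2.38, and 8 with FB1, with a median of -2.77. Of all genes 8.02% were called lower without FB1 and 18.3% with it. The list's mean level spanned -1.11 to -0.44 in KO FB1 livers and -1.07 to -0.41 in KO control livers, and 2.21 to 2.61 in WT FB1 livers and 1.40 to 2.80 in WT control livers. The defining markers Clec4f, a Kupffer cell lectin gene, and Vsig4, a complement receptor gene, were well above background on all arrays. Other lists also differed by genotype. Recruited macrophage markers were higher in KO for 7 of 10 with FB1 and 6 of 10 without it, with medians of 2.08 and 1.13. Lower calls were 1 with FB1 and 2 without it. The shares of all genes called higher were 14.5% with FB1 and 7.21% without it. With FB1, 7 of 8 neutrophil markers were lower (median -1.61) and 5 of 9 sinusoidal endothelial markers lower (-0.44). Of 10 stellate cell markers 7 were higher and 1 lower with FB1 (median 0.48). Of all genes 18.3% were called lower and 14.5% higher in that comparison. The part of any of these lists in the lower members of KO livers was not tested.

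**Figure D5:**
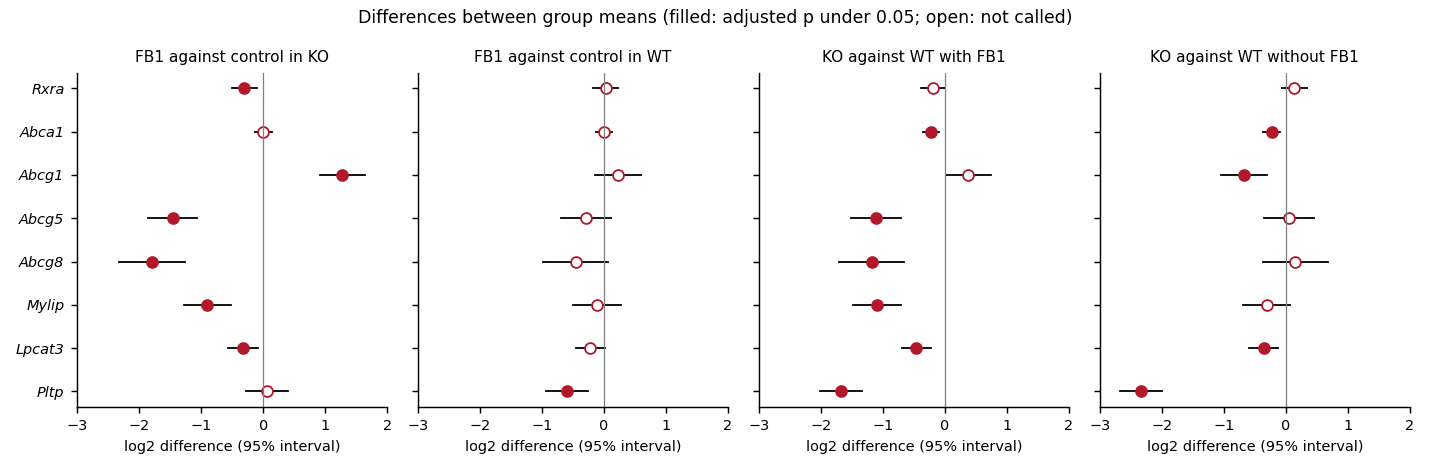
Log2 difference between group means (points) with the 95% interval of limma (lines) for the 8 genes other than Nr1h3 and Nr1h2. Filled points have adjusted p under 0.05. The largest FB1 differences are in KO livers (Abcg8 -1.79, Abcg5 -1.46, Abcg1 1.28). Pltp differs more with FB1 in WT livers (-0.60) than in KO livers (0.06), and it has the largest genotype differences (-2.34 without FB1).

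The FB1 effects themselves differed between genotypes for 3 of the 10 genes: Abcg1 upward, Abcg5 and Abcg8 downward. Of all genes 9.3% were called in that test, 4.46% upward and 4.84% downward. Upward calls were 47.9% of them here and 58.7% in the authors' deposited values. Leaving out KO FB1 replicate 3 raised the count to 5, with Mylip (adjusted p = 0.0483) and Rxra (adjusted p = 0.04) added. Of all genes 13.7% were called in that fit. Other single arrays gave 3 or 4.

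Of 23 other LXR target genes, 8 were lower and 1 higher in KO without FB1, with a median of -0.25. Over all genes 8.02% were called lower and 7.21% higher there. Cd5l, a macrophage-secreted scavenger protein gene, fell by 9.16 on the log2 scale (adjusted p = 3.09e-17), and it is also a Kupffer marker. Scd1 fell by 4.22 (adjusted p = 3.19e-11) and Scd2, a related desaturase gene, by 1.62 (adjusted p = 2.9e-05). With FB1, 11 of the 23 were lower and 2 higher, with a median of -0.28, where 18.3% and 14.5% of all genes were called. In that comparison Srebf1, which encodes the lipogenic factor SREBP-1, fell by 1.82 (adjusted p = 1.63e-06).

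FB1 raised 2 and lowered 6 of these 23 targets in KO livers, with a median of -0.16, a share no higher than the 41.2% of all genes called. Lpl, lipoprotein lipase, rose by 3.62 ± 0.27 in KO livers (adjusted p = 5.73e-09) and by 1.72 ± 0.27 in WT livers (adjusted p = 0.000743), where it was the target of the 23 that was called. Its FB1 effects differed by 1.90 ± 0.38 (adjusted p = 0.00391). Mlxipl, which encodes the glucose-responsive factor ChREBP, fell by 0.78 in KO livers, and its FB1 effects differed by -0.58.

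Oxysterol genes fell more than they rose. With FB1 in KO livers 6 of 10 tested were lower and 0 higher, with a median of -0.57. Of all genes 24.6% were called lower and 16.5% higher there. Cyp7b1, an oxysterol 7α-hydroxylase gene, was lower by -2.09 ± 0.19 (adjusted p = 4.28e-08) and Cyp27a1, a sterol 27-hydroxylase gene, by -1.05 ± 0.16 (adjusted p = 2.8e-05). Their FB1 effects differed between KO and WT by -1.53 ± 0.26 (adjusted p = 0.0014) and -0.82 ± 0.23 (adjusted p = 0.0275). In WT livers limma called 0 of 10, with 3 at an unadjusted p under 0.05, and Cyp7b1 had the smallest p (-0.56 ± 0.19, adjusted p = 0.107). Between genotypes, 3 were lower without FB1 and 6 with it, where 8.02% and 18.3% of all genes were called lower. Sult1e1, a sulfotransferase gene, had the smallest p without FB1 (-2.61 ± 0.72, adjusted p = 0.0142).

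Among genes of high density lipoprotein and bile, 4 rose and 4 fell of 16 tested with FB1 in KO livers, with a median of -0.11. With 41.2% of all genes called in that comparison, this count has a high background. Soat1, a cholesterol esterifying enzyme gene, rose by 1.14 ± 0.15 (adjusted p = 4.11e-06), and it was 1.58-fold lower in KO than in WT livers without FB1 (adjusted p = 0.00308). Lipg, endothelial lipase, fell by 1.14 (adjusted p = 0.000433) and Lcat, the plasma cholesterol acyltransferase gene, fell by 0.51 (adjusted p = 0.000813). Lipg was dim, with means of -4.64 in KO FB1 livers and -3.50 in KO control livers, which limits its precision. Apoa4, a lipoprotein component gene, was higher in KO by 2.30 with FB1 (adjusted p = 2.7e-05) and by 1.55 without FB1 (adjusted p = 0.0037). In WT livers limma called 0 of the 16 with FB1, and 1 had an unadjusted p under 0.05 (Lipa, a lysosomal lipase gene, 0.16 ± 0.07).

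Other ABCA and ABCG transporters, of which 11 were tested, split with FB1 in KO livers, with 5 lower and 2 higher and a median of -0.17. Over all genes 24.6% were called lower and 16.5% higher. Abca8a was lower by -1.12 ± 0.21 (adjusted p = 0.000247) and Abca2 by -0.49 ± 0.09 (adjusted p = 0.000196), and Abca3 fell by 0.36. These 3 also had called differences of the FB1 effect. In WT livers limma called 0 of the 11, with 2 at an unadjusted p under 0.05, and Abcg3 had the smallest p (0.42 ± 0.18, adjusted p = 0.23).

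Of 20 RXR partners and coregulators, 6 fell and 1 rose with FB1 in KO livers, with a median of -0.11, again a share no higher than the 41.2% of all genes. Ppargc1a and Ppargc1b, coactivator genes of energy metabolism, were lower by -1.09 ± 0.29 (adjusted p = 0.00416) and -0.94 ± 0.25 (adjusted p = 0.00378). With FB1 in WT livers limma called 0 of the 20, and 3 had an unadjusted p under 0.05. Med1, a Mediator subunit gene, was the 1 gene of the list called without FB1 between genotypes, higher in KO by 0.48 ± 0.08 (adjusted p = 8.28e-05). Of 8 other lysophospholipid acyltransferases tested, 3 rose and 2 fell with FB1 in KO livers, where Lpcat2 rose by 0.47 and Agpat2 fell by 0.63. The shares of all genes called there were 16.5% higher and 24.6% lower. Mboat7 was called in WT livers (0.29 ± 0.08, adjusted p = 0.0496).

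Likeness over arrays was lower for the receptor genes once group means were removed. Gm11033 was most like Nr1h3 (r = 0.995, and 0.559 with group means removed), Cd5l was also among the 3 most like it (r = 0.992, and 0.244 with group means removed), and Pop4, an RNase P subunit gene on chromosome 7, among the 3 most like Nr1h2 (r = 0.993, and -0.07 with group means removed). Hnf4a, a hepatocyte nuclear receptor gene, was among the 3 most like Rxra (r = 0.864, and 0.829 with group means removed). Ddx59 was most like Abca1 at r = 0.881 and Pdk1, a pyruvate dehydrogenase kinase gene, most like Lpcat3 at r = 0.914. These r values are descriptions over 24 arrays that share groups and slides.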

How the data were processed

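The deposited scanner files give each spot's intensity, background-subtracted by Agilent Feature Extraction 10.10.1.1, per the file headers. A deposited table gives the authors' log2 values, used only as an alternative, and the submitters' processing notes name limma. Here the processed signal was divided by the 75th percentile over an array's non-control spots and put on the log2 scale. Spots marked as outliers (64 to 121 per array) were left out, and 0 were saturated. Probes entered the tests if 1 group had them well above background on all its unmarked arrays and each group held 4 values or more, which left 33417 of 56605. The brightest tested probe on average stood for its gene. All 24 arrays went into a single limma 3.58.1 model (R 4.3.3) with 4 group means, checked on simulated data. Nothing in the labels says more of the mice's independence than 6 mice a group.

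The members, lists and tests were chosen with earlier results of these data known. Some genes of the lists are not reported here. Named genes were the members with all their probes, up to 3 called genes of smallest p per list and comparison (1 where none was called), and genes among the 3 most like a member. Alternatives were quantile normalization, normexp (offset 50), the authors' values, no or another filter on dim probes, averaged probes, slide or replicate blocks, single slides, the compared groups alone and leaving out each array. With FB1 in KO livers 1 of 8 cholangiocyte, 6 of 10 stellate, 0 of 8 neutrophil, 2 of 6 lymphocyte and 0 of 5 erythroid markers rose. The share of all genes called higher there was 16.5%.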

Additional observations from a re-analysis of the deposited data

Results flagged for a closer look

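In 4 of the 40 groups of 6 livers examined, the highest or lowest value stood apart from the others by more than Dixon's 95% critical value, where chance gives about 1 in 20. Nr1h3 was -2.56 in KO FB1 replicate 6, above the other KO livers. Mylip was -1.37 in KO FB1 replicate 1, below its group. Lpcat3 was 4.45 in KO control replicate 3, below its group. Pltp was 1.77 in WT control replicate 6, above its group.

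The effect of FB1 differed between KO and WT livers by limma's test of that difference for 3 members and 8 genes named from the pathway lists. Among the members it was -1.17 for Abcg5, -1.33 for Abcg8 and 1.05 for Abcg1. Among the pathway genes it was -1.53 for Cyp7b1, 1.90 for Lpl, 0.88 for Soat1, -0.51 for Abca2, -0.82 for Cyp27a1, -0.58 for Mlxipl, -0.40 for Abca3 and -1.001 for Abca8a, all KO minus WT on the log2 scale. The endothelial marker Stab2 had -0.71 (adjusted p = 0.018).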

How the results depend on the processing

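Members called with FB1 in WT livers went to 0 under quantile normalization, normexp, no filter on dim probes, the replicate block, the compared groups alone and each slide alone. They were 0 to 1 when single arrays were left out. Of all genes 2.43%, 2.22%, 1.16%, 2.5% and 1.72% were called in the settings before the slides, in that order. Slides 1, 2 and 3 alone called 0.0317%, 0.149% and 0% of all genes, and fits without 1 array 1.73% to 3.85%. With FB1 in KO livers the members called were 4 under quantile normalization, normexp and the authors' values, 7 with averaged probes and 1 on slide 2 alone. The shares of all genes called there were 40.3%, 38.6%, 37.2%, 40.6% and 1.38%, in that order. Between KO and WT the members called were 3 on slide 2 with FB1, and 3 on slides 1 and 2 without FB1. Of all genes 3.19% were called on slide 2 with FB1, and 3.28% and 1.92% on slides 1 and 2 without it. For the difference of FB1 effects the members called were 0 on slides 1 and 2, 1 on slide 3 and 3 to 5 when single arrays were left out. There 0.0272%, 0.0136% and 4.9% of all genes were called on slides 1, 2 and 3, and 6.73% to 13.7% without single arrays. A slide alone has 2 arrays a group. The cause of other changes was not tested. Over all genes, FB1 in WT livers gave 381 calls with the compared groups alone, against 638, and 383 without WT FB1 replicate 1, and the difference of effects gave 1258 with no filter, against 2055.

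Signs that turned were mostly of uncalled members near 0. FB1 in WT gave, under quantile normalization, 0.000257 for Nr1h2 and 0.065 for Abca1, under normexp 0.017 for Nr1h3 and 0.068 for Abca1, and in the authors' values 0.0025 for Nr1h3, 0.0039 for Nr1h2 and 0.059 for Abca1. Averaged probes gave 0.14 for Abca1 and -0.055 for Rxra. Slide 1 gave 0.11 for Abca1 and -0.28 for Rxra, slide 2 gave 0.031 for Nr1h2, and slide 3 gave -0.16 for Abcg1 and 0.48 for Mylip. FB1 in KO gave 0.0021 for Nr1h2 under quantile normalization and 0.0041 for Rxra in the authors' values, a called fall in the main values. Slide 1 gave -0.47 for Nr1h3 and -0.055 for Pltp, slide 2 gave -0.43 for Nr1h3 and 0.14 for Nr1h2, and slide 3 gave -0.027 for Abca1 and -0.030 for Pltp. KO against WT with FB1 gave for Rxra 0.015 under quantile normalization, 0.028 under normexp and 0.064 in the authors' values. Without FB1 it gave -0.31 for Abcg5 and -0.22 for Abcg8 on slide 1, and 0.015 for Mylip on slide 3. The difference of effects gave for Nr1h2 -0.012 under normexp, -0.024 in the authors' values, -0.048 for averaged probes and -0.016 on slide 1. It gave for Lpcat3 0.011 in the authors' values, 0.23 on slide 1 and 0.047 on slide 2, for Nr1h3 -0.43 on slide 1 and -0.25 on slide 2, and for Abca1 -0.097 on slide 1.

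Leaving out single arrays turned some uncalled signs. The FB1 difference in KO ran from -0.0146 to 0.0241 for Abca1, -0.085 to 0.0128 for Nr1h2 and -0.18 to 0.34 for Nr1h3. In WT it ran from -0.0348 to 0.0402 for Abca1 and -0.0312 to 0.0856 for Rxra. The difference of effects ran from -0.0358 to 0.0392 for Abca1, -0.0162 to 0.0815 for Nr1h2 and -0.0772 to 0.435 for Nr1h3, and KO against WT without FB1 from -0.0552 to 0.174 for Abcg5. Labels number the mice, but 36 same-numbered pairs across groups correlated at -0.2 to 0.241 and 2 of 24 arrays were closest to their own number. With the replicate block, the members called without FB1 between genotypes were 5 and for the difference of effects 4, Mylip being added (adjusted p = 0.0268). Of all genes 14.4% and 8.59% were called in these 2 tests. Signals of 15.2 to 116 limit the precision of Nr1h3 in KO livers.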
